A study of Mus musculus with 7 samples.

Results

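The genes described here are 10 genes of the Nrf2 antioxidant and glutathione response, chosen by name: Nfe2l2, Keap1, Nqo1, Hmox1, Gclc, Gclm, Txnrd1, Srxn1, Gpx3 and Gsta4. They carried 19 of the 34945 probe sets that name a single gene, and they make up 10 of the 18193 genes with such a probe set. Where a gene had more than 1 probe set, the one of highest mean log2 signal stands for it below and the others follow beside it. The glands came from virgin female FVB mice with a transgene for the middle T antigen of polyoma virus (PyV-MT), an oncogene that gives rise to mammary tumours, and were collected at 8 weeks of age. The control group (3 arrays) had eaten AIN93G chow for 4 weeks, and the other group (4 arrays) chow with 1% CLA (conjugated linoleic acid), that is, isomers of linoleic acid in which the double bonds are conjugated. The design text puts 5 mice on the control diet and 6 on CLA, and the 3 and 4 samples compared here are each called a mouse in the labels. Both groups carry the oncogene, so no value below bears on a gland without it, and the labels do not state which promoter drives it. Values are MAS5 signals, a linear measure of hybridised RNA per probe set, and every change is CLA minus control on the log2 scale.

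Nrf2, the product of Nfe2l2, is a transcription factor that switches on detoxifying and antioxidant genes. In resting cells its partner Keap1 holds it for degradation, and electrophiles or oxidants modify Keap1 and let Nrf2 accumulate. Nrf2 then binds, with a small Maf protein, to antioxidant response elements near genes such as Nqo1, Hmox1, Gclc, Gclm, Txnrd1 and Srxn1. The enzyme whose subunits are Gclc and Gclm carries out the first step of glutathione synthesis. Glutathione is the substrate that Gpx3 uses to reduce peroxides and that Gsta4 joins to lipid aldehydes such as 4-hydroxynonenal. Oxidised polyunsaturated fatty acids give rise to such aldehydes.

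The response element has a conserved core, TGACNNNGC, and the stretch around it is shown for the members whose start regions hold this core, since it is the sequence feature that names the group. Start regions of 300 bases, 250 of them before the transcription start, were available from RefSeq (GRCm38.p6) for 7 of the 10 members, in 9 windows. Gclc, Hmox1 and Gsta4 were not among them. The core, searched on both strands, lay in 4 of the 9 member windows, 1 window in each of 4 members. It lay in 12.4% of all 32851 windows (4071), and no share per gene was taken. A match is a description of letters and not a binding site. The core is in capitals, with 10 bases on each side, written 5′ to 3′ on the strand that reads TGACNNNGC. In Nfe2l2 it lies 232 to 240 bases before the start on the gene's own strand, at chr2:75704885-75704913 (minus strand). In Gclm it lies 126 to 134 bases before the start on the opposite strand, at chr3:122245413-122245441 (minus strand). In Txnrd1 it lies 84 to 92 bases before 1 of 3 starts on the opposite strand, at chr10:82859104-82859132 (minus strand). In Srxn1 it lies 28 to 36 bases after the start on the opposite strand, at chr2:152105542-152105570 (minus strand).
Nfe2l2: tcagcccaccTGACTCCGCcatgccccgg
Gclm: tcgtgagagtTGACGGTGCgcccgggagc
Txnrd1: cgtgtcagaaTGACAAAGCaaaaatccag
Srxn1: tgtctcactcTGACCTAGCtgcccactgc

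The windows of Nqo1, Keap1 and Gpx3 and of the other Txnrd1 starts do not hold these letters, which says nothing of elements elsewhere in those genes.

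The trimmed mean signal was 500.003 on all 7 arrays, and pairs of arrays had Pearson correlations of 0.927 to 0.950 across genes. RNA integrity was read from the ratio of 3′ to 5′ signal for Actb, which reached 2.78 on CLA replicate 3 and ran from 1.41 to 1.88 elsewhere. Control replicate 1 and CLA replicate 1 have title numbers that start with 27 and the other arrays numbers that start with 28. What the numbers stand for is not stated in the labels. The tissue is whole gland: the luminal milk protein genes Csn3 and Lalba were measured on every array at signals of 33125 to 49272 and 12340 to 43401. In such bulk tissue, fewer cells of a type and less RNA per cell cannot be told apart. With 3 and 4 arrays, precision is limited throughout.

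No member of the Nrf2 group differed between CLA and control glands beyond the spread between arrays. All 10 members passed the filter on dim signals, and 0 of 10 passed an adjusted p of 0.05 in limma's fit over 12497 genes, where the share of all genes called was 0%. At an unadjusted p under 0.05 limma called 0 of 10 members, against 674 genes or 5.39% of all genes (298 higher and 376 lower with CLA). A per-gene unequal-variance test called 0 of 10 members and 485 genes at the same unadjusted threshold. The signals of control and CLA arrays overlapped for 10 of 10 members, and did not overlap for 5.31% of all genes. With so few members, 0 of 10 is close to what these shares give. The members' changes ran from -0.40 (Gpx3) to 0.21 (Hmox1), with 4 positive and 6 negative and a median of -0.05. Over all genes tested the median was 0.03 and 55.3% were positive. The median within-group SD of the members, 0.30 on the log2 scale, lay near that of all genes, 0.28.

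**Figure D1:**
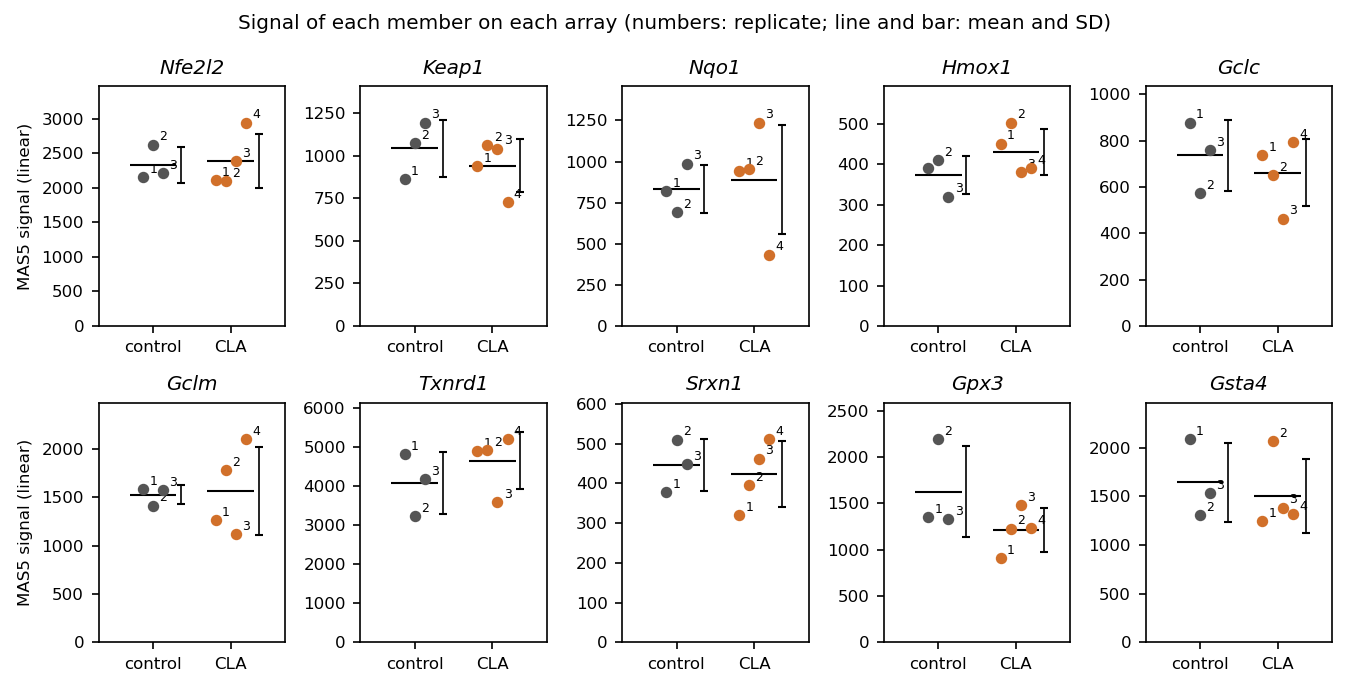
MAS5 signal (linear axis from 0) of the 10 members on each array, with 3 control arrays in grey and 4 CLA arrays in orange; small numbers give the replicate, horizontal lines the group mean and vertical bars the SD. The groups overlap in each of the 10 panels, and the lowest Nqo1 signal, 434, stands on CLA replicate 4.

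For the regulator and its inhibitor no difference between the diets was resolved. Nfe2l2 (probe set 1416543_at), which encodes Nrf2 itself, gave 2152, 2623 and 2212 on the control arrays and 2113, 2099.9, 2383 and 2942 on the CLA arrays. The highest and the lowest signals were both on CLA arrays, and the control signals lay between them. The change was 0.03 ± 0.16 (SE; 95% interval -0.33 to 0.38; limma adjusted p = 0.999). Its other probe set stayed under the filter, at 6.60 to 15.9 on control arrays and 7.27 to 37.9 on CLA arrays.

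Keap1 (1450746_at), which tethers Nrf2 to the ubiquitin ligase, gave 866, 1074 and 1196 on the control arrays and 939, 1062, 1043 and 726 on the CLA arrays. CLA replicate 4, which had the highest Nfe2l2 signal, was lowest, and the highest was on control replicate 3. The change was -0.15 ± 0.19 (SE; 95% interval -0.57 to 0.27; limma adjusted p = 0.995). The second Keap1 probe set gave a change of -0.14, and its spread on CLA arrays was wide, from 85.2 on replicate 3 to 459 on replicate 4.

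Neither subunit gene of glutathione synthesis differed between the diets beyond its spread. Gclc (1424296_at), the catalytic subunit of glutamate-cysteine ligase, gave 878, 575 and 761 on the control arrays and 738, 650.0, 463 and 794 on the CLA arrays. The lowest signal was on CLA replicate 3 and the highest on control replicate 1, with the groups overlapping between them. The change was -0.17 ± 0.23 (SE; 95% interval -0.68 to 0.34; limma adjusted p = 0.996), and the second probe set, of 437 to 482 on control and 445 to 573 on CLA arrays, gave a change of the other sign, 0.15.

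Gclm (1418627_at), the modifier subunit that raises the activity of Gclc, gave 1590.2, 1416 and 1577 on the control arrays and 1267, 1782, 1119.5 and 2104 on the CLA arrays. The control arrays lay close together (SD 97.1, n = 3), and the CLA arrays spread to both sides of them (SD 456, n = 4). The means were 1528 and 1568, and the change was -0.01 ± 0.22 (SE; 95% interval -0.50 to 0.48; limma adjusted p = 0.999). The difference in spread was not tested. The second Gclm probe set, 235 to 361 on control and 268 to 371 on CLA arrays, gave a change of 0.14. In both subunits the lowest signal of the brightest probe set was on CLA replicate 3, where the Actb ratio peaked. The second Gclc probe set was instead highest on that array, at 573. With the Actb ratio in the fit the changes of the brightest probe sets were -0.04 and 0.08. The part of RNA integrity in these values was not tested.

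Txnrd1 (1421529_a_at), the cytosolic thioredoxin reductase that returns thioredoxin to its reduced form with NADPH, gave 4829.9, 3245 and 4179.7 on the control arrays and 4896, 4934, 3592 and 5208 on the CLA arrays. The lowest signals of the groups were control replicate 2 and CLA replicate 3, and the other CLA arrays lay above all 3 control arrays. The change was 0.19 ± 0.18 (SE; 95% interval -0.21 to 0.60; limma adjusted p = 0.979).

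The other 2 Txnrd1 probe sets were lowest on the same arrays. The probe set 1424486_a_at gave 525, 122 and 219 on control arrays and 531, 453, 94.4 and 689 on CLA arrays, a 7.30-fold range. The probe set 1424487_x_at gave 139, 65.0 and 74.8 on control arrays and 214, 155, 21.2 and 189 on CLA arrays, a 10.1-fold range. Control replicate 2 and CLA replicate 3 were the lowest arrays of their groups for all 3 Txnrd1 probe sets. The changes of these 2 probe sets with CLA were 0.55 and 0.29. The Actb 3′ to 5′ ratio was highest in each group on these same arrays, 1.88 and 2.78, and with this ratio in the fit the change of the brightest probe set was 0.29. The part of RNA integrity in the Txnrd1 values was not tested. The suffix _x_at marks probe sets that may hybridise with other transcripts.

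Srxn1, sulfiredoxin, repairs over-oxidised peroxiredoxins. Its brightest probe set (1426875_s_at) gave 378, 509.9 and 449 on the control arrays and 320.2, 396, 462 and 511 on the CLA arrays. The CLA arrays spanned the whole control range, and the change was -0.09 ± 0.21 (SE; 95% interval -0.56 to 0.38; limma adjusted p = 0.997). The probe sets 1451680_at, at 261 to 314 on control and 225 to 319 on CLA arrays, and 1425351_at, at 94.9 to 144 and 112 to 147, gave changes of -0.08 and 0.04.

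A further probe set (1419942_at) is annotated to Srxn1 through an expressed sequence tag listed among the gene's older names, and its match to the Srxn1 transcript was not checked, so its values are uncertain as a measure of Srxn1. It gave 110.4, 119.6 and 136 on the control arrays and 10.7, 30.2, 63.9 and 102 on the CLA arrays. Each CLA array was lower than each control array, but CLA replicates 1 and 2 lay under the filter signal of 57.7, as did the CLA mean of 51.7, so the probe set entered the fit through the control arrays. The fitted change, -1.67 ± 0.67 (SE), is therefore uncertain in size, with a limma adjusted p of 0.975 over 22867 probe sets. Among the members' probe sets above the filter, it was the 1 of 18 with groups that did not overlap. Over all probe sets tested 5.42% had such groups and 4.90% had an unadjusted p under 0.05, so 1 of 18 is near the background. The change ran from -2.91 with the muscle score in the fit to -0.75 when 64 was added to each signal, and from -2.15 to -1.06 with 1 array left out (CLA replicates 4 and 1). By title number it was -3.37 in the set that starts with 27 and -1.13 in the set that starts with 28. The other 3 Srxn1 probe sets had changes between -0.09 and 0.04.

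**Figure D2:**
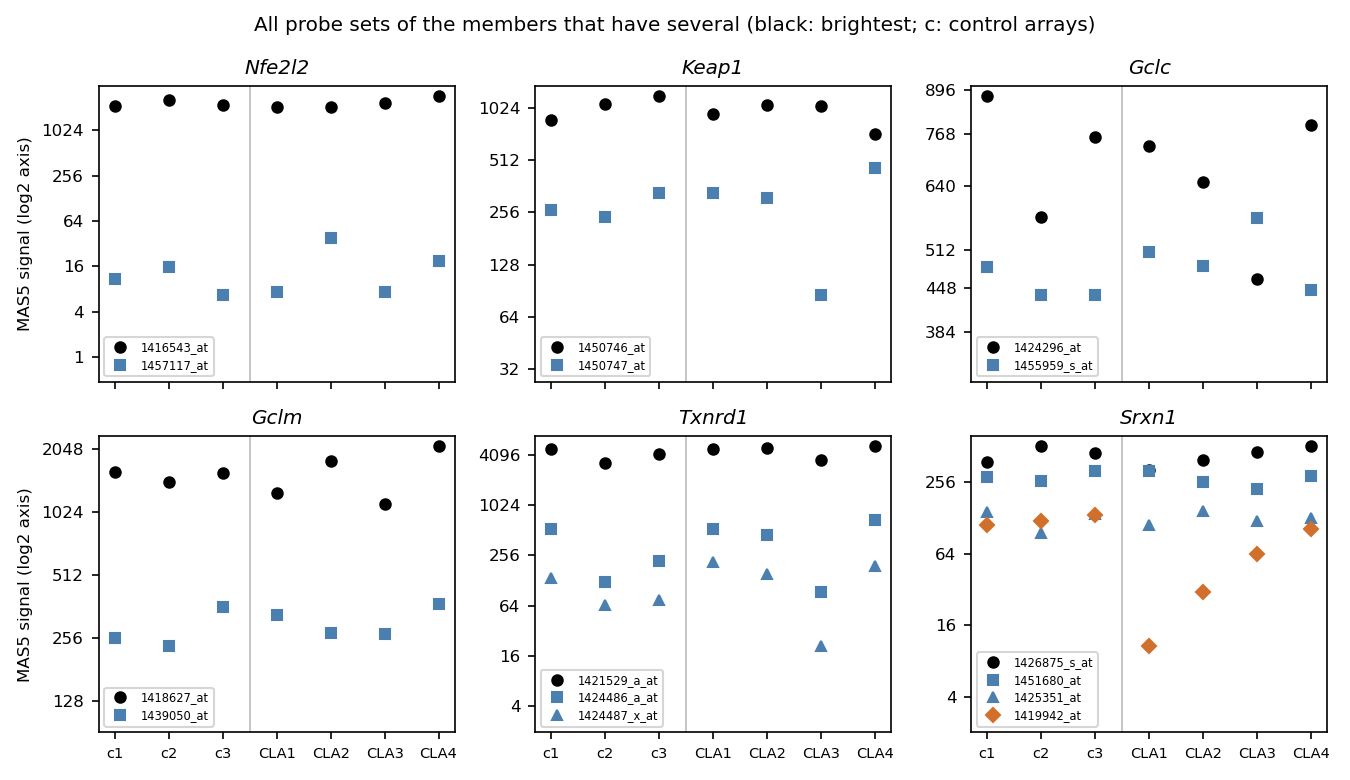
MAS5 signal (log2 axis) of each probe set of the 6 members with more than 1, on control arrays 1 to 3 and CLA arrays 1 to 4; black circles are the brightest probe set, blue marks the others and orange diamonds the Srxn1 probe set whose groups do not overlap. The 3 Txnrd1 probe sets are lowest on control replicate 2 and CLA replicate 3 within their groups, and the Srxn1 probe sets do not move together.

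Of the 9 other probe sets of members, 8 passed the filter. The sign of the change was that of the brightest probe set in 5 of them and the opposite in 3, one each of Gclc, Gclm and Srxn1.

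Nqo1 and Hmox1, the classical reporters of Nrf2 activity, had 1 probe set each. Nqo1 (1423627_at), a quinone reductase, gave 822, 694 and 987 on the control arrays and 939, 952, 1237 and 434 on the CLA arrays. CLA replicate 4 was the lowest of all arrays and CLA replicate 3 the highest, a 2.85-fold range around the control signals. The within-group SD of Nqo1, 0.53 on the log2 scale, exceeded that of 87.2% of genes tested. The change was 0.01 ± 0.32 (SE; 95% interval -0.71 to 0.73; limma adjusted p = 0.999), so differences within that interval were not resolved for this gene. The interval is not adjusted for the number of genes, so larger differences could also miss the adjusted threshold.

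Hmox1 (1448239_at), which opens the ring of heme to biliverdin, carbon monoxide and iron, gave 389.9, 410.0 and 320.4 on the control arrays and 451, 503, 382 and 391 on the CLA arrays. The highest signals were on CLA replicates 1 and 2, and CLA replicates 3 and 4 lay within the control range. The change was 0.21 ± 0.18 (SE; 95% interval -0.20 to 0.62), 1.16-fold, with limma adjusted p = 0.972. Macrophages are a known source of Hmox1 in tissue, and the summed signal of the 15 macrophage markers was 27135 to 35187 on control and 27306 to 34662 on CLA arrays. The brightest, Cd14 and Lyz2, had changes of opposite sign, -0.68 and 0.26. The part of these markers in the Hmox1 values was not tested.

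Gpx3 (1449106_at), the secreted glutathione peroxidase of plasma and extracellular fluid, had the lowest p of the members. It gave 1349.8, 2194 and 1332 on the control arrays and 910.4, 1229, 1486 and 1231 on the CLA arrays. Control replicate 2 stood above the other arrays, and CLA replicate 3 lay above the other 2 control arrays. The change was -0.40 ± 0.23 (SE; 95% interval -0.91 to 0.10), 1.32-fold lower, with limma adjusted p = 0.931. The gene ranked 1416 by p among the 12497 tested. Without control replicate 2 the change was -0.16. With the start of the title number as a block it was -0.44, with an unadjusted limma p under 0.05 and an adjusted p of 0.663. In that fit 935 of the 12497 genes had an unadjusted p under 0.05.

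Adipocytes of the fat pad, a known site of Gpx3 expression, were represented by 16 tested markers, with a median change of -1.40. Of these markers 16 were lower at an unadjusted limma p under 0.05 (0 at an adjusted p), against 376 of all 12497 genes tested. The summed signal of the 17 with a probe set was 95468 to 119475 on control arrays and 39868 to 87314 on CLA arrays, and CLA replicate 4 had the highest CLA sum. The 2 brightest were Fabp4 (-1.30) and Thrsp (-0.38). The part of these markers in the Gpx3 values was not tested.

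Gsta4 (1416368_at), the glutathione S-transferase with high activity towards 4-hydroxynonenal, gave 2088, 1303 and 1535 on the control arrays and 1247, 2064, 1384 and 1317 on the CLA arrays. Control replicate 1 and CLA replicate 2 stood together above the other 5 arrays, which lay between 1247 and 1535. The change was -0.13 ± 0.22 (SE; 95% interval -0.63 to 0.37; limma adjusted p = 0.997).

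The changes were also taken within each set of title numbers. Among the title numbers starting with 27 (1 array against 1, no replicate check) they ran from -0.74 for Gsta4 to 0.21 for Hmox1. Among those starting with 28 (3 CLA arrays against 2 control arrays) they ran from -0.38 for Gpx3 to 0.30 for Txnrd1. Lower with CLA in both sets were Gpx3 (-0.57 and -0.38), Gclc (-0.25 and -0.09) and Srxn1 (-0.24 and -0.08). Higher in both were Hmox1 (0.21 and 0.22) and Txnrd1 (0.02 and 0.30). Keap1 (0.12 and -0.29), Gclm (-0.33 and 0.11), Gsta4 (-0.74 and 0.14), Nqo1 (0.19 and -0.05) and Nfe2l2 (-0.03 and 0.02) had opposite signs in the sets.

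**Figure D3:**
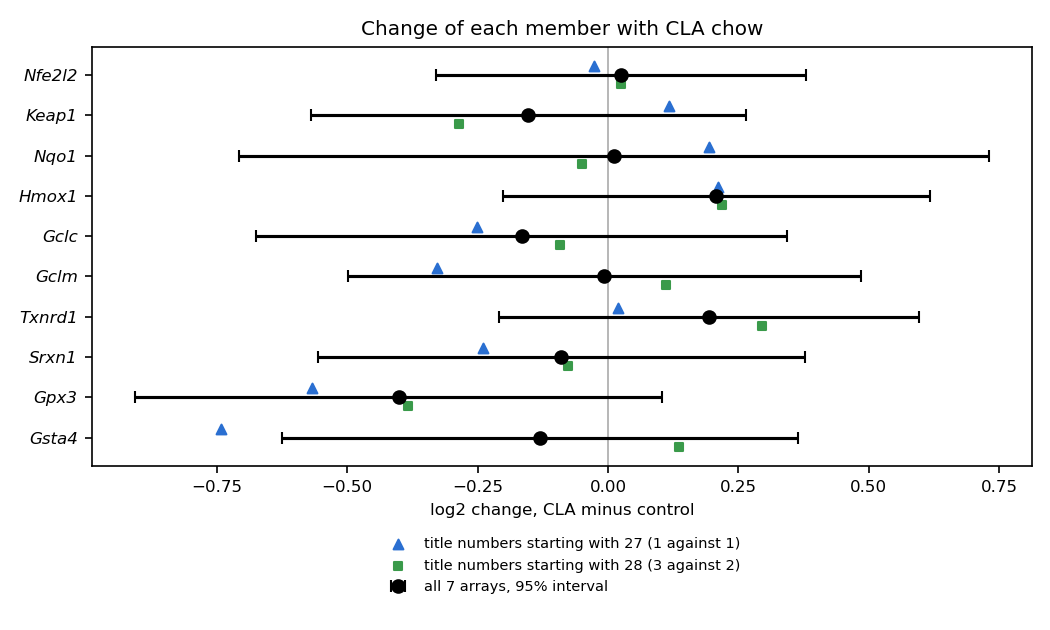
Log2 change, CLA minus control, of each of the 10 members over all 7 arrays (black, 95% interval), within the 2 arrays whose title numbers start with 27 (blue triangles) and within the 5 that start with 28 (green squares). Each of the 10 intervals includes 0; that of Gpx3 runs from -0.91 to 0.10.

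No array was the highest or the lowest for more than 4 of the 10 members. The median deviation of the 10 members from their group mean lay between -0.08 (CLA replicate 1) and 0.14 (CLA replicate 2). On CLA replicate 2, 2 of the 10 members lay below their group mean and the rest above it, while on the other arrays 4 or 5 lay below. CLA replicate 4 held the highest signal of 4 members (Nfe2l2, Gclm, Txnrd1 and Srxn1) and the lowest of 2 (Keap1 and Nqo1). CLA replicate 1 held the lowest signal of 3 members (Srxn1, Gpx3 and Gsta4). On CLA replicate 4, then, the signals of Nfe2l2 and Gclm were high while that of Nqo1 was low.

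The wider network was read from 8 lists chosen by role, with 94 genes tested. Of these, 0 passed the adjusted threshold, and 6 (6.38%) had an unadjusted limma p under 0.05, 1 higher and 5 lower, against 5.39% of all genes. The groups did not overlap for 5 of the 94 genes (5.32%), against 5.31% of all genes. Of these, Gstk1, Txnip and Me1 were lower with CLA, and Idh2 and Nqo2 (0.25) were higher.

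Among the partners of Nrf2 and the proteins that govern its turnover, 0 of 12 passed even the unadjusted threshold, with a median change of -0.01. The smallest p-values were those of the small Maf genes Mafk (-0.22) and Maff (0.31) and of the kinase Gsk3b (-0.18). In glutathione supply and recycling 0 of 12 tested genes passed either threshold, with a median of 0.02. The smallest p-values belonged to Ggct, of the gamma-glutamyl cycle, with a change of 0.27, Glo1, which detoxifies methylglyoxal with glutathione, with 0.21, and Chac1, which degrades glutathione, with -0.49 ± 0.34 (SE). The cystine transporter gene Slc7a11 lay under the filter.

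Of 18 glutathione S-transferase genes tested, 15 had negative changes, with a median of -0.08, and 0 passed the adjusted threshold. At the unadjusted one, 1 was higher (Gstcd, 0.68 ± 0.25) and 2 were lower (Gstk1, -0.37 ± 0.15, and Gstm1, -0.51 ± 0.22). Positive changes made up 16.7% of the list and 55.3% of all genes tested. An unadjusted limma p under 0.05 was found for 16.7% of the list and 5.39% of all genes. The list was not tested as a set. Gstk1, the peroxisomal and mitochondrial member, gave 949.8, 854 and 894 on control arrays and 728, 762, 621 and 673 on CLA arrays, so each CLA array was lower, with a limma adjusted p of 0.873. The Gstm1 probe set is of the _x_at kind and may take signal from other Mu-class genes, so its values are uncertain. The change of Gstcd came to 0.01 in the title numbers starting with 27 and 0.97 in those starting with 28.

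Peroxidases, catalase and superoxide dismutases gave 0 of 12 genes past either threshold, with a median of -0.10. The smallest p-values were those of catalase, Cat (-0.40 ± 0.20, SE), of Sod3, the extracellular superoxide dismutase (-0.58 ± 0.33), and of the mitochondrial Sod2 (-0.23 ± 0.14). In the thioredoxin system, 8 of 12 changes (66.7%, against 55.3% of all genes) were positive, with a median of 0.05. Txnip, an inhibitor of thioredoxin, was the 1 gene of that list at an unadjusted p under 0.05. It gave 8920.1, 9648 and 9131 on control arrays and 7375, 7459, 7400.0 and 5079 on CLA arrays, a change of -0.45 ± 0.15 (SE) with a limma adjusted p of 0.797. Each CLA array was lower than each control array, and CLA replicate 4 was the lowest. The reductase Txnrd3 (-0.26) and the mitochondrial thioredoxin Txn2 (0.20) came next by p.

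The lowest p of the wider lists belonged to Me1, the cytosolic malic enzyme, which supplies NADPH both for reduction of glutathione and for fatty acid synthesis. Its signal was 6240.0, 5984 and 7819.7 on control arrays and 3701, 4311, 3855 and 4747 on CLA arrays. All 4 CLA arrays were lower than all 3 control arrays. The change was -0.68 ± 0.14 (SE), 1.60-fold lower, with a limma adjusted p of 0.423. The other 7 NADPH genes tested had unadjusted p-values above 0.05, among them Pgd (-0.18) and Idh2 (0.19), and the list's median was -0.08. For Idh2 each CLA array was higher than each control array. Me1 is highly expressed in adipocytes, whose markers are given above beside Gpx3, and their part in the Me1 values was not tested.

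Heme and iron handling gave 0 of 8 genes past either threshold and a median of 0.05, with the heme transporter Slc48a1 at 0.13, the ferritin heavy chain Fth1 at -0.13 and the transferrin receptor Tfrc at 0.19. In quinone, carbonyl and epoxide detoxification 1 of 12 tested genes had an unadjusted p under 0.05, and the list's median was 0.03. That gene was Ephx2, the soluble epoxide hydrolase that acts on fatty acid epoxides, at 745, 675 and 424 on control arrays and 289, 283, 333 and 457 on CLA arrays. CLA replicate 4 lay above control replicate 3, so the groups overlapped. The change was -0.84 ± 0.25 (SE), 1.79-fold lower, with a limma adjusted p of 0.703. Next by p were the aldehyde dehydrogenase Aldh2 (-0.37 ± 0.20) and the microsomal epoxide hydrolase Ephx1 (-0.51 ± 0.31).

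**Figure D4:**
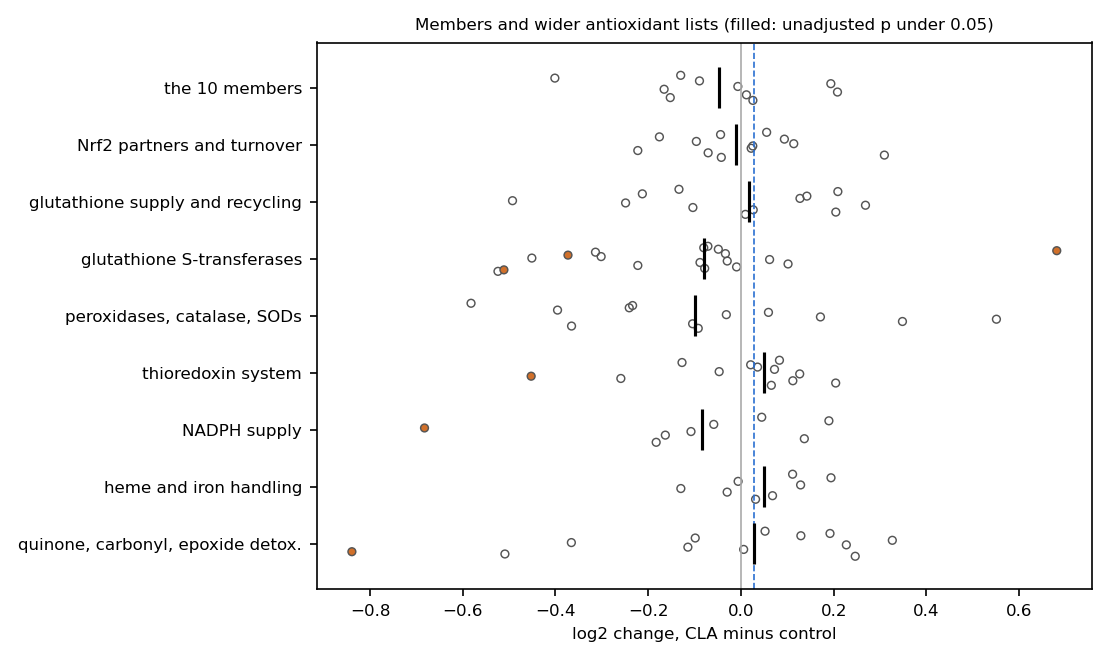
Log2 change, CLA minus control, of the 10 members and of each tested gene of 8 wider lists; filled points have an unadjusted limma p under 0.05, short vertical bars are list medians and the dashed line is the median of all genes tested, 0.03. The list medians lie between -0.10 and 0.05, and the 6 filled points are Gstcd on the positive side and Gstk1, Gstm1, Txnip, Me1 and Ephx2 on the negative side.

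Markers of other cells in the gland were read on the same arrays. Skeletal muscle markers had a summed signal of 13664 to 126070 on control and 1122 to 20076 on CLA arrays, with Acta1 at 31.8 on CLA replicate 2 and 19588 on control replicate 2. Of these markers 19 of 19 tested were lower at an unadjusted limma p, with a median of -3.77. By title number that median was 0.57 in the 27 set and -5.38 in the 28 set (Acta1 0.62 and -6.64), so the direction turned between the sets. Brown adipocyte markers (6 of 9 tested lower at an unadjusted p, median -1.52), with Cidea and Cox8b the brightest, summed to 3696 to 17061 and 1209 to 5392. Luminal markers had a median change of -0.01 (1 of 19 higher and 1 lower at an unadjusted p). Basal markers had a median of 0.24 (3 of 12 higher), with the brightest, Itga6 and Acta2, at 0.07 and -0.04. Macrophage markers had a median of 0.14 (2 of 14 lower). Endothelial markers, with Esam and Egfl7 the brightest, had -0.23 (0 of 12), and fibroblast markers, with Col3a1 and Col1a2, 0.18 (1 of 12 higher). At the same unadjusted threshold 298 of all 12497 genes tested were higher and 376 lower, 5.39% in either direction. Of the red blood cell markers, Alas2 alone passed the filter, at 0.13, while Ermap lay under it. No marker of these 9 lists passed the adjusted threshold, and none had a signal at or under the floor of 1. With the muscle score in the fit, 0 of 10 members passed the adjusted threshold, while several estimates moved by over 1.5 times. Among the members, Gclm moved from -0.01 to -0.44, Gsta4 from -0.13 to -0.56, Gclc from -0.17 to -0.39, Srxn1 from -0.09 to -0.21 and Nqo1 from 0.01 to 0.23. Keap1 moved from -0.15 to -0.03 and Nfe2l2 from 0.03 to 0.004, and Txnrd1 took the opposite sign (0.19 to -0.06). Among the wider genes Cat moved from -0.40 to -0.03, Ephx1 from -0.51 to -0.08, Gstcd from 0.68 to 0.28 and Sod3 from -0.58 to -1.04. Txnip moved from -0.45 to -0.26, Gstm1 from -0.51 to -0.79, Maff from 0.31 to 0.96 and Gsk3b from -0.18 to -0.02. Glo1 moved from 0.21 to 0.03, Idh2 from 0.19 to 0.02, Txn2 from 0.20 to 0.11 and Fth1 from -0.13 to -0.24. Slc48a1 took the opposite sign (0.13 to -0.02).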

How the data were processed

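The authors deposited MAS5 signal intensity values, linear in scale, as the submitters' processing notes name that algorithm without a version. Total RNA carried a biotin label and was read on Affymetrix arrays in 1 colour, per the labels' protocols, with 45101 probe sets in the deposited table. Because the authors' intensity values shared a trimmed mean of 500.003 (2% off each end), no further scaling was applied. A change shared by all transcripts cannot be seen after such scaling.

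Signals below 1 (987 values) were raised to 1 before log2 was taken. Probe sets with exactly 1 symbol (34945) were used, and 932 with several symbols, 9160 with no symbol and 64 control probe sets were not. Symbols came from GEO's platform annotation, and those of 34741 probe sets were looked up by gene identifier in a RefSeq table (GRCm38.p6). A gene entered the test when its mean reached a signal of 57.7, the 40th percentile over probe sets, which kept 12497 genes and left out 5696. The comparison, taken as CLA minus control, used lmFit and eBayes with trend from limma 3.58.1 (R 4.3.3), with 4.53 prior degrees of freedom and no covariate. P-values are two-sided, and the Benjamini-Hochberg adjustment ran over every gene in the test, at 0.05. The same fit over 22867 probe sets gave the values of the other probe sets. It was tested on simulated data. Intervals are at 95%. The per-gene unequal-variance test, which approximates poorly at these group sizes, gave counts only.

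Groups came from the diet in the labels, which call each sample a mouse. Nothing else says that the samples are separate animals, and if they were not, p-values would measure a technical spread. Replicate numbers follow accession order and pair nothing. A list score is the mean, over its genes with a probe set, of log2 signal after subtraction of each gene's mean.

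The members and the lists were chosen with earlier results of these data known. Named genes were all 10 members, the 3 genes of smallest unadjusted p in each of 8 pathway lists and the 2 brightest of each of 9 marker lists. The probe set 1419942_at and the genes Slc7a11 and Nqo2 were singled out after their values were seen. Alternatives were quantile normalization, median centring, pseudocounts of 16 and 64, averaging of probe sets, no filter or a 60th percentile filter, untrended and robust eBayes, an adjusted threshold of 0.1, the start of the title number as a block or as a subset, covariates for muscle score and 3′ to 5′ ratio, and each array left out. Leaving out control replicate 2 and CLA replicate 3 together, and refits of 1419942_at, were added after seeing the values. Plots used matplotlib 3.10.9 (Python 3.11.15).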

Additional observations from a re-analysis of the deposited data

Results flagged for a closer look

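Of 60 sets of 4 CLA values examined, 6 had 1 array far from the other 3. Chance alone gives about 1 in 20 for independent sets. These sets share the same 4 arrays, and Txnrd1 enters them more than once, so no excess over chance is read from the count. The value below is the gap between the far array and its nearest neighbour divided by the range of the 4 arrays. The brightest Txnrd1 probe set (0.834) and its probe set 1424487_x_at (0.86) were low on CLA replicate 3, and so was Glo1 (0.849). Txnip was low on CLA replicate 4 (0.971). Gstm1 was high on CLA replicate 4 (0.854). The red blood cell score was high on CLA replicate 4 as well (0.965).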

How the results depend on the processing

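Of 21 alternatives, 4 (other filters and eBayes settings) cannot move a member's change. Under the other 17 the 10 members gave 170 changes: 145 kept their sign, 25 took the opposite sign (in 6 members) and 0 passed the adjusted threshold. Named pathway genes gave 501 values over all 21 alternatives, of which 2 reversed and 0 passed. These genes were picked for small p-values in these same data. Their steadier signs follow in part from that choice, and the count is not comparable with that of the members. Gpx3 passed the unadjusted threshold, as the 1 such member, with the title number start as a block (-0.44) and with the 3′ to 5′ ratio in the fit (-0.50). In these fits 935 and 949 of 12497 genes passed it, so 1 of 10 members is near the background. No paired analysis was possible because the titles carry no replicate numbers, and the title number block stands in the report. Opposite signs came with title numbers starting with 28 only for Nqo1 (-0.050), Gclm (0.11) and Gsta4 (0.14), with the 3′ to 5′ ratio for Nqo1 (-0.086) and Gclm (0.076), with quantile normalization for Nqo1 (-0.00527), with median centring, which shifts every gene alike by 0.0808, for Gclm (0.074), with probe sets averaged per gene for Gclm (0.065) and Glo1 (-0.12), and with the muscle score for Txnrd1 (-0.056) and Slc48a1 (-0.017). With control replicate 2 and CLA replicate 3 left out together, Nqo1 gave -0.30 and Gclm 0.086. With each array left out in turn, Nfe2l2 ran from -0.080 to 0.11, Nqo1 from -0.18 to 0.32, Gclm from -0.16 to 0.14, Srxn1 from -0.20 to 0.036 and Gsta4 from -0.29 to 0.057. With their sign kept, Gpx3 ran from -0.52 to -0.16, Keap1 from -0.28 (without control replicate 1) to -0.032 (without CLA replicate 4), Gclc from -0.34 (without control replicate 2) to -0.0045 (without CLA replicate 3), Txnrd1 from 0.037 (without control replicate 2) to 0.32 (without control replicate 1) and Hmox1 from 0.10 (without control replicate 3) to 0.28. The cause was not tested. Genes past the adjusted threshold numbered 1 higher with title numbers starting with 28 only, 0 to 2 higher with an array left out (2 without control replicate 1) and 0 to 17 lower (17 without CLA replicate 4), with 0 members among them. Median centring moved the median change of all genes from 0.03 to 0.11. With 3 and 4 arrays the members' 95% intervals run from -0.33 to 0.38 for the narrowest (Nfe2l2) and from -0.71 to 0.73 for the widest (Nqo1), and differences within them are not resolved.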
